A study of Mus musculus with 6 samples.

Results

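The 10 genes described here encode the early complement components that macrophages and stromal cells can make: the C1q chains C1qa, C1qb and C1qc, the C1 proteases C1ra, C1rb and C1s1, the components C2, C3 and C4b, and factor B (Cfb). They were taken by symbol from a table of 52550 genes, and all 10 passed the filter on low counts and were among the 16402 genes tested. The set was put together with the comparison of MSR1 KO and MSR1 WT libraries already known, and C1rb was singled out as one of the largest rises, so the differences below for these genes are a description and carry no p-value. In the MSR1 KO libraries 9 of the 10 genes had higher mean levels. C1s1 was the exception, with a mean that was 2.25-fold higher in MSR1 WT. C1rb went from 0, 11 and 15 counts in MSR1 WT to 127, 249 and 237 counts in MSR1 KO.

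Complement is a cascade of plasma and tissue proteins that marks particles for uptake and draws in inflammatory cells. In the classical pathway C1q binds a target, and the serine proteases C1r and C1s attached to it then cleave C4 and C2, which together form a C3 convertase. In the alternative pathway factor B joins C3b to form another C3 convertase that amplifies the first. The liver makes most of the circulating components, whereas C1q comes largely from macrophages and dendritic cells, and interferon is known to raise several of these genes in macrophages.

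The macrophages were grown from C57BL/6 mouse bone marrow for 7 days in 25 ng/ml M-CSF and then shared a transwell system with BMSCs (bone marrow stem cells) for 48 h. The groups were MSR1 KO (3 libraries) and MSR1 WT (3 libraries), which differ in whether the mice carried the scavenger receptor Msr1, and every library came from a co-culture, so no library shows macrophages alone. The study calls the libraries biological replicates, and the labels do not say whether each came from its own animal.

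Total counts per library ran from 36143518 to 47417448, and a gene at 0 may have had as many as 3 counts, which is 0.0633 to 0.083 CPM depending on the library. CPM values are counts relative to library size, scaled here by the TMM method, and log2 fold changes are MSR1 KO over MSR1 WT from edgeR's quasi-likelihood fit. Msr1 itself had 2118, 1825 and 2000 counts in MSR1 KO and 7543, 9163 and 9219 in MSR1 WT, a log2 fold change of -2.02 (SE 0.14), so reads on it were reduced but not absent. Of all genes tested, 2.25% were higher and 2.66% lower in MSR1 KO at an adjusted p under 0.05, and 25.5% had groups that did not overlap in CPM. The median log2 fold change over all genes was -0.0023.

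The recognition part of C1 was by far the most abundant. C1qa, C1qb and C1qc encode the A, B and C chains that assemble into C1q, and lie side by side on the minus strand of chromosome 4 between 136880129 and 136898803 (GRCm38) with no other gene between them. C1qa had 1221, 1319 and 1460 CPM in MSR1 KO replicates 1, 2 and 3 and 1091, 905 and 1085 CPM in MSR1 WT replicates 1, 2 and 3. C1qb had 2044, 2277 and 2528 CPM in MSR1 KO and 1850, 1889 and 1900 CPM in MSR1 WT. C1qc had 1963, 1969 and 2132 CPM in MSR1 KO and 1875, 1603 and 1606 CPM in MSR1 WT. For each chain the lowest MSR1 KO library lay above the highest MSR1 WT library, and replicate 3 was the highest of the MSR1 KO libraries. The log2 fold changes were small, at 0.38 (SE 0.10) for C1qa, 0.28 (SE 0.08) for C1qb and 0.25 (SE 0.08) for C1qc, and none of the chains was among the genes called by edgeR, while DESeq2 called C1qa and C1qb. Summed, the chains took 0.520%, 0.552% and 0.600% of all counts in MSR1 KO and 0.484%, 0.447% and 0.463% in MSR1 WT, with a log2 fold change of 0.29 (SE 0.07). The proportions of the chains differed between the groups by less than the larger of the SDs. Per kilobase of exon, C1qb stood at 2.00 ± 0.14 times C1qc in MSR1 KO and 1.98 ± 0.20 times in MSR1 WT (SD, n = 3), and C1qa at 0.612 ± 0.012 and 0.572 ± 0.062 times C1qb.

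**Figure D1:**
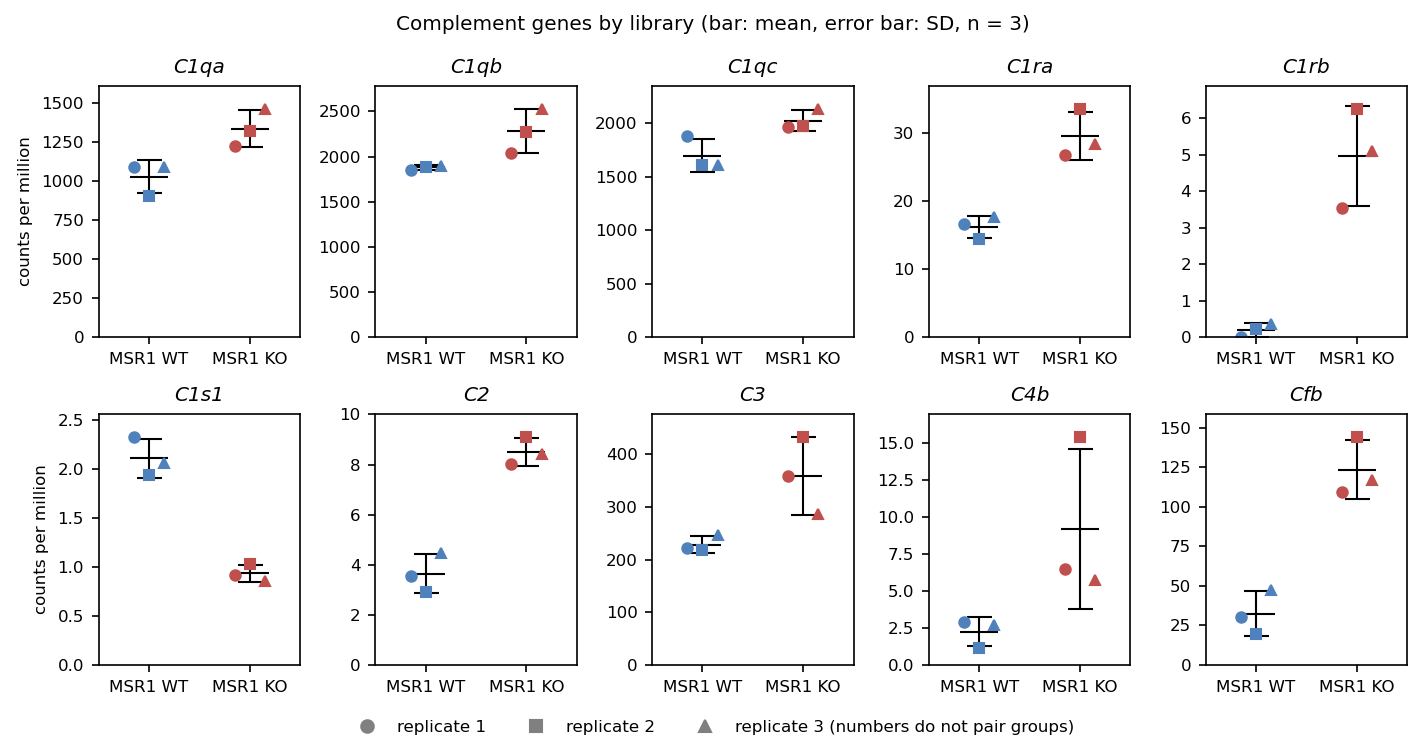
CPM (vertical axis, from 0) of the 10 complement genes in the 3 MSR1 WT libraries (blue) and the 3 MSR1 KO libraries (red), with the group mean and SD in black. The groups do not overlap in any panel, the shift is narrow for the C1q chains and wide for C1rb, C1s1 is the gene whose MSR1 KO points lie below, and a single MSR1 KO library at 15.4 CPM stands far above the other libraries for C4b.

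The proteases of C1 are encoded together on chromosome 6, where C1ra (124512405 to 124523443, plus strand), C1s1 (124530345 to 124542359, minus strand) and C1rb (124570294 to 124581171, plus strand) follow each other, with C1s2 after them. C1ra and C1rb are copies of the gene for C1r, the protease that activates C1s, and C1s1 and C1s2 are copies of the gene for C1s, which cleaves C4 and C2. Over 2428 aligned bases the C1rb and C1ra transcripts were 98.1% identical (47 differences), and the longest run without a difference was 757 bases. Of the 100-base stretches of C1rb, 42.7% occurred letter for letter in C1ra, and of the 150-base stretches 32.6%, so reads from there could be placed on either gene. The 90 coding bases in which they differ most, shown because only reads over such places tell the genes apart, lie in the last exon (11 of 11), at chr6:124580693-124580782 for C1rb and chr6:124522647-124522736 for C1ra on the plus strand of GRCm38. Capitals mark the 13 bases at which they differ.
C1rb: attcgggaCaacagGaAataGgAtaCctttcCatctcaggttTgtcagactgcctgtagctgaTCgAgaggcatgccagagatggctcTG
C1ra: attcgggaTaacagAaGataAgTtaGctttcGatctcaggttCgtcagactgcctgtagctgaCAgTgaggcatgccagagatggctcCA

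C1rb (ENSMUSG00000098470.1) had 3.54, 6.25 and 5.10 CPM in MSR1 KO and 0, 0.232 and 0.363 CPM in MSR1 WT. Its log2 fold change of 4.62 (SE 0.67) ranked 2 among the 13611 genes with a mean of 1 CPM or more. The log2 fold change was 4.06 (SE 0.40) without MSR1 WT replicate 1 and 5.32 (SE 0.77) without MSR1 WT replicate 3. The paralogue C1ra (ENSMUSG00000055172.10) had 26.8, 33.6 and 28.4 CPM in MSR1 KO and 16.7, 14.5 and 17.6 CPM in MSR1 WT, a log2 fold change of 0.86 (SE 0.12). Its level was thus already well above that of C1rb in MSR1 WT, and its groups lay apart with little spread inside each.

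Counted together, C1ra and C1rb had 1088, 1586 and 1558 counts in MSR1 KO and 687, 698 and 744 counts in MSR1 WT. The log2 fold change of this sum was 1.07 (SE 0.13), a value that does not depend on how the counted reads were divided between the copies. C1rb made up 11.7% of the sum in MSR1 KO replicate 1 (95% exact binomial interval 9.83% to 13.7%), 15.7% in replicate 2 (13.9% to 17.6%) and 15.2% in replicate 3 (13.5% to 17.1%). In MSR1 WT it made up 0 of 687 counts in replicate 1, which allows a share of up to 0.437%, 1.58% in replicate 2 (0.789% to 2.80%) and 2.02% in replicate 3 (1.13% to 3.30%). The intervals of the MSR1 KO libraries lay above those of the MSR1 WT libraries. They cover counting error only, and how the counting program treated reads that match both genes is not given in the sources used here.

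**Figure D2:**
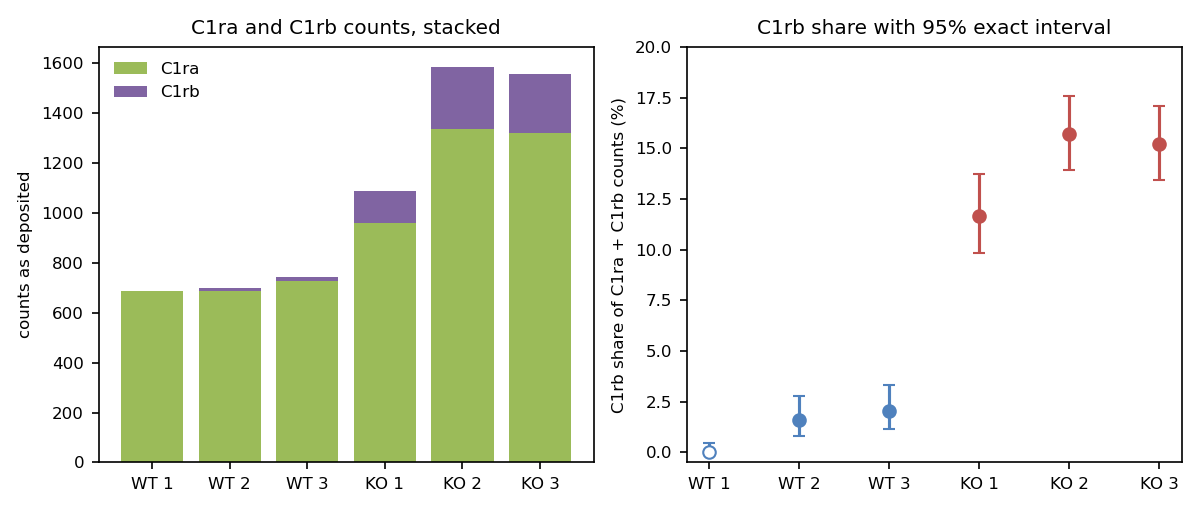
Left, deposited counts of C1ra (green) and C1rb (purple) stacked for each of the 6 libraries. Right, C1rb as a percentage of both with 95% exact binomial intervals, where the open point is the MSR1 WT library with 0 counts and its bar is the limit of 0.437%. The share is 11.7% to 15.7% in MSR1 KO and 2.02% or less in MSR1 WT, and C1ra alone is also higher in each MSR1 KO library.

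The copies also resemble each other around their starts. Among the RefSeq promoter sequences used here (GRCm38.p6, from 250 bases before to 50 bases after a gene's start) 6 of the 10 genes were found. A stretch of 149 bases in the C1rb promoter matched 149 bases of the C1ra promoter at 93.9% identity, with 9 differing bases and 2 gaps, although it begins 250 bases before the RefSeq start of C1rb (124570430) and 99 bases before that of C1ra (124512621). The deposited table, whose positions are given above, has both starts further upstream, and the stretch begins 114 bases before its start of C1rb and 117 bases after its start of C1ra. Both copies hold a match to the gamma-activated site pattern TTCNNNGAA, searched on both strands, which 8.30% of the 32851 promoters in the table hold. The match begins 119 bases before the RefSeq start of C1rb and 32 bases after that of C1ra, and after the start in the deposited table for both genes. The interferon-stimulated response element pattern is GAAA, any 2 bases, GAAA, and can share bases with the other pattern. It occurs in 3.44% of the promoters and in none of the 7 listed for the 6 genes found. C1qa, C2, C4b and Cfb had no promoter in that set and were not searched for either pattern. The C1rb stretch up to the end of the match (chr6:124570180-124570319, plus strand) is shown with the match in capitals, because C1rb is the gene with the widest change here.
C1rb: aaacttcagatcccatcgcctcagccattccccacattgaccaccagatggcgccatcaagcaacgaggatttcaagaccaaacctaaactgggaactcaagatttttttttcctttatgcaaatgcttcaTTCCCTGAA

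C1s1 (ENSMUSG00000038521.17) moved the other way from the C1r genes next to it. It had 33, 41 and 40 counts (0.919, 1.03 and 0.861 CPM) in MSR1 KO and 96, 92 and 85 counts (2.33, 1.94 and 2.06 CPM) in MSR1 WT. The log2 fold change was -1.17 (SE 0.26), and the highest MSR1 KO library lay below the lowest MSR1 WT library. Per kilobase of exon, C1ra and C1rb together stood at 35.5, 42.1 and 42.3 times C1s1 in MSR1 KO and at 7.51, 7.99 and 9.23 times in MSR1 WT. Its copy C1s2 was at 0 counts in all 6 libraries. An antisense gene, Gm16567, shares 18.4% of the C1s1 exon bases and had 0 to 16 counts, and since the strand setting of the counting is not given in the sources used here, reads of the overlap cannot be told apart. C1s1 and C1s2 transcripts were 96.2% identical over 2657 bases, and 7.90% of the 100-base stretches of C1s1 occurred in C1s2. Their most different 90 coding bases lie in exon 12 of 12 of C1s1, at chr6:124531434-124531523 for C1s1 and chr6:124625656-124625745 for C1s2, and are given on the minus strand with the 11 differing bases in capitals.
C1s1: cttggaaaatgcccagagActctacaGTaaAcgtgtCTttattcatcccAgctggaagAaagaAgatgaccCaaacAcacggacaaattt
C1s2: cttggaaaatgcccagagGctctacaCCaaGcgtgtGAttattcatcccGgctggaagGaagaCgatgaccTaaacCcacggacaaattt

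The substrates of C1s and the protease of the alternative pathway lie in the class III region of the major histocompatibility complex on chromosome 17, all on the minus strand. C4b (34728380 to 34743882) encodes C4, whose larger fragment anchors the classical C3 convertase. Cfb (34856374 to 34862518) encodes factor B, the protease of the alternative C3 convertase. C2 (34862604 to 34898265) lies next to Cfb and encodes the protease of the classical C3 convertase.

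Cfb had 109, 144 and 117 CPM in MSR1 KO and 30.3, 19.7 and 47.4 CPM in MSR1 WT, which gives means of 124 ± 18.5 and 32.5 ± 14.0 CPM (SD, n = 3) and a log2 fold change of 1.93 (SE 0.28). C2 had 8.02, 9.12 and 8.41 CPM in MSR1 KO and 3.57, 2.91 and 4.45 CPM in MSR1 WT, a log2 fold change of 1.23 (SE 0.19). For both genes replicate 2 was the highest MSR1 KO library, and MSR1 WT replicate 3 was the highest MSR1 WT library. The gene Gm20547, annotated across both on the same strand, shares 79.5% of the exon bases of Cfb and 42.8% of those of C2. It was listed with 15 counts in MSR1 KO replicate 2 and 20 in MSR1 WT replicate 2 and with 0 in the other libraries. C2 also shares 4.16% of its exon bases with Zbtb12 on the other strand, which had 8.97 to 10.1 CPM in MSR1 KO and 9.51 to 12.3 CPM in MSR1 WT.

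C4b had 233, 615 and 266 counts (6.49, 15.4 and 5.72 CPM) in MSR1 KO and 119, 53 and 112 counts (2.89, 1.12 and 2.71 CPM) in MSR1 WT. The log2 fold change was 2.05 (SE 0.47), and MSR1 KO replicate 2 carried much of it. Without that library the log2 fold change was 1.45 (SE 0.38), and the other MSR1 KO libraries still lay above the MSR1 WT libraries. The nearby copy C4a had 4, 0 and 0 counts in MSR1 KO and 11, 6 and 29 in MSR1 WT and was too low to be tested. C4b and C4a transcripts were 96.1% identical over 5367 bases, and 16.5% of the 100-base stretches of C4b occurred in C4a. Their most different 90 coding bases lie in exon 21 of 41 of C4b, at chr17:34735430-34735519 for C4b and chr17:34816086-34816175 for C4a on the minus strand, with the 14 differing bases in capitals.
C4b: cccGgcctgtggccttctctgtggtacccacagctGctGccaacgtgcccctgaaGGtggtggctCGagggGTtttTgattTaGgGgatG
C4a: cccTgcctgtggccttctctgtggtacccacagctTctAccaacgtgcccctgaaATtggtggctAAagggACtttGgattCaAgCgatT

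C3 encodes the protein on which the pathways converge and lies apart from the others on chromosome 17 (57203970 to 57228136, minus strand). It had 358, 433 and 286 CPM in MSR1 KO and 221, 218 and 247 CPM in MSR1 WT. The log2 fold change was 0.65 (SE 0.14), and the distance between the lowest MSR1 KO library and the highest MSR1 WT library was small against the range of the MSR1 KO libraries.

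None of the tested genes lying among these was called. Between C4b and C2 on chromosome 17 there are 15 other genes, of which 6 were tested and 0 were called in either direction, with log2 fold changes from -0.16 to 0.20. Between C1rl and C1s2 on chromosome 6 there are 5 other genes, of which 2 were tested and 0 were called. They were C1rl, a protease related to C1r, at a log2 fold change of 0.23 (SE 0.15), and Gm18840, named after its values were seen, with 48, 45 and 72 counts in MSR1 KO and 32, 0 and 40 in MSR1 WT (log2 fold change 1.21, SE 0.92).

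**Figure D3:**
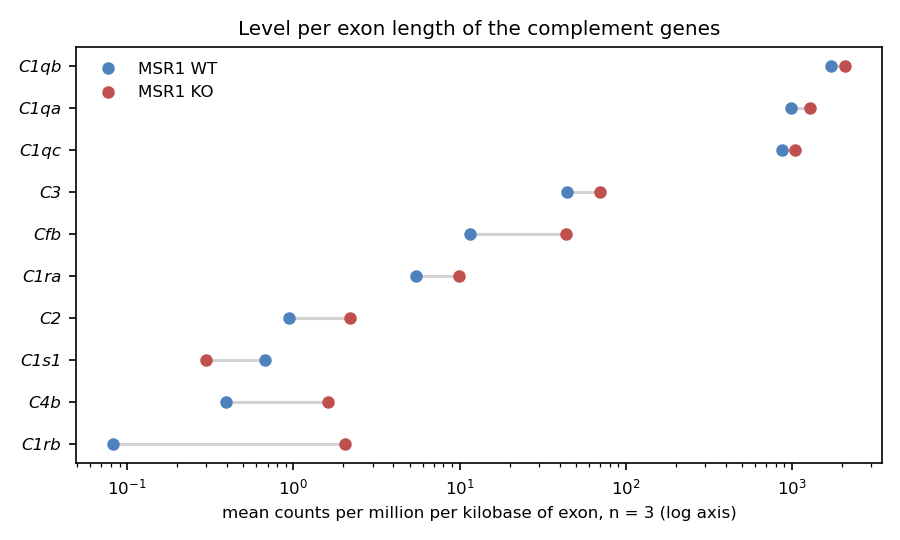
Mean CPM per kilobase of exon of each complement gene on a log axis, in MSR1 WT (blue) and MSR1 KO (red), n = 3 each, ordered by the MSR1 WT level. The genes span from 0.0816 to 1728 CPM per kilobase in MSR1 WT, and C1s1 is the gene whose red point lies to the left.

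Levels between genes were compared per kilobase of exon. In MSR1 WT the order was C1qb (1728 CPM per kilobase), C1qa (988), C1qc (878), C3 (44.4), Cfb (11.5), C1ra (5.46), C2 (0.941), C1s1 (0.674), C4b (0.393) and C1rb (0.0816). The libraries of C1qa and C1qc overlapped, and no other neighbours in the order did. In MSR1 KO the order was the same down to C2 (2.20 CPM per kilobase), followed by C1rb (2.04), C4b (1.62) and C1s1 (0.299). There the libraries of C2 and C1rb overlapped, as did those of C1rb and C4b. C1rb therefore moved from the lowest level of the 10 to one near those of C2 and C4b, and C1s1 became the lowest.

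Read as a group, 6 of the 10 genes (C1ra, C1rb, C2, C3, C4b and Cfb) were among the 2.25% of genes called higher, and C1s1 was among the 2.66% called lower. By the study's own rule, a fold change above 1.5 with an unadjusted p under 0.05, 6 were higher and 1 was lower, beside 3.59% and 5.05% of all genes tested. The groups did not overlap in CPM for 10 of 10 genes, where 25.5% of all genes had groups that did not overlap. The median log2 fold change of the 10 was 0.76. These counts rest on the contrast by which the genes were picked. They also changed when a library was left out. The number called higher was 1 without MSR1 WT replicate 1 and 3 without MSR1 WT replicate 2 or MSR1 KO replicate 1. It was 4 or 5 with any of the others left out. Over all genes tested, higher calls fell from 369 to 18 without MSR1 WT replicate 1 and 42 without MSR1 KO replicate 1. They were 62 without MSR1 WT replicate 2 and 407 without MSR1 WT replicate 3. A fall in calls was thus not particular to the 10 genes. C1s1 and C4b were called in none of the 6 fits that left a library out. Among the MSR1 KO libraries, replicate 2 was the highest for the 7 genes other than the C1q chains. Over all genes tested replicate 2 was the highest MSR1 KO library for 33.3%, over 16 stromal marker genes for 11 and over 14 interferon-induced genes for 10.

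The rest of the complement system was read from a list of 53 other genes, of which 30 had enough counts to be tested and 14 were at 0 in every library. By edgeR's quasi-likelihood test with Benjamini-Hochberg adjustment over all genes, 0 of the 30 were higher in MSR1 KO and 3 were lower, with a median log2 fold change of -0.14. At an unadjusted p under 0.05, 1 was higher and 9 were lower. The share of all genes at that threshold was not worked out, so these counts have nothing to be judged against. DESeq2 called 0 higher and 4 lower at an adjusted p under 0.05. Over all genes it called 695 higher and 795 lower, against 369 and 436 by edgeR.

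**Figure D4:**
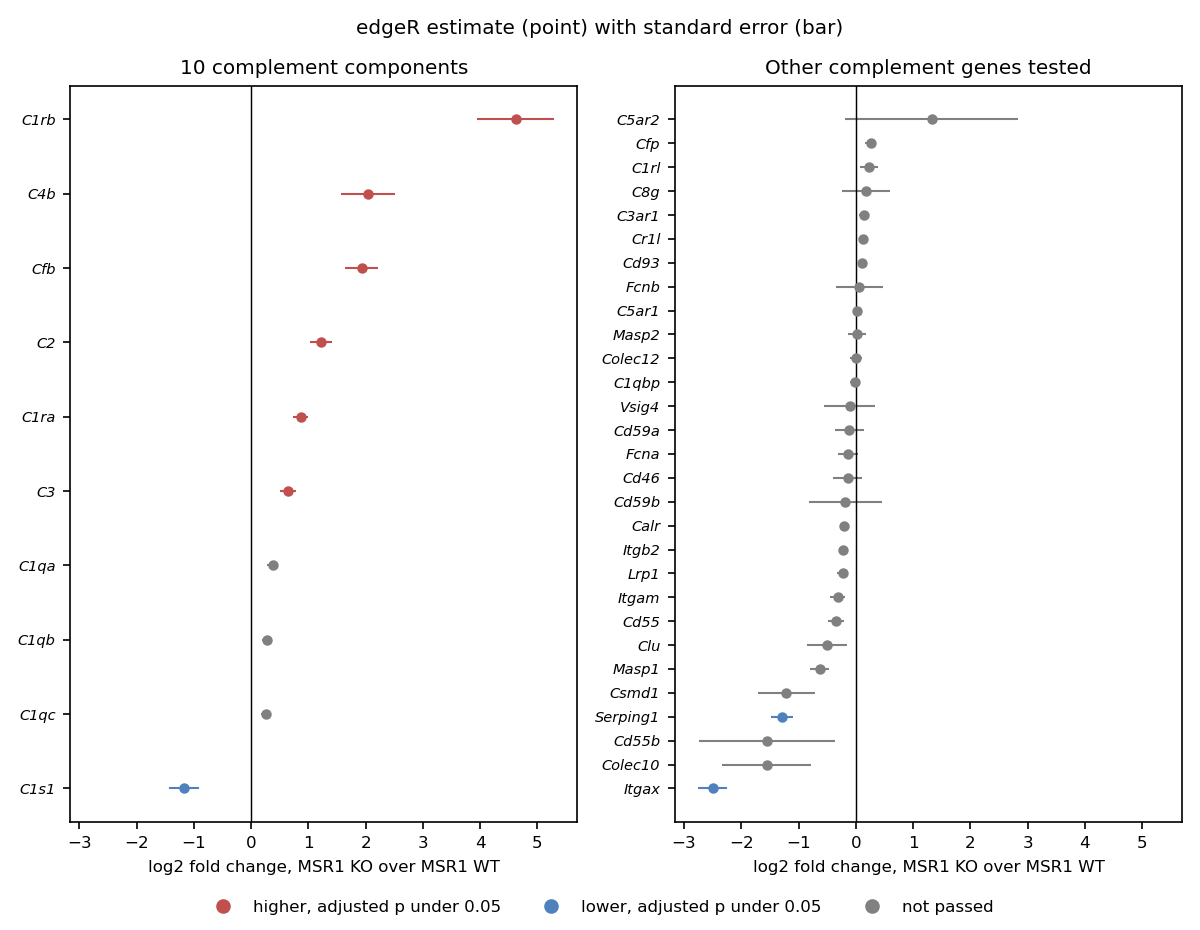
Log2 fold change (MSR1 KO over MSR1 WT, horizontal axis) with its standard error for the 10 complement components (left) and 29 other complement genes tested (right), coloured by the call at an adjusted p under 0.05. On the left 6 points are red and 1 is blue, and on the right 0 are red and 2 are blue (Serping1 and Itgax). Calls on the left are a description, since the genes were picked on this contrast.

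Among the fluid-phase regulators Serping1 passed. Serping1, the C1 inhibitor that takes C1r and C1s out of the C1 complex, had 8.99, 12.7 and 10.4 CPM in MSR1 KO and 25.8, 20.3 and 32.5 CPM in MSR1 WT. Its log2 fold change was -1.29 (SE 0.20, adjusted p = 0.018 by edgeR's quasi-likelihood test with Benjamini-Hochberg adjustment), and it was lower in 3 of 3 MSR1 KO libraries than in any MSR1 WT library. In the same test the adjusted p was 0.073 with MSR1 WT replicate 1 left out, 0.067 with MSR1 KO replicate 1 left out and 0.053 with MSR1 KO replicate 3 left out. Per kilobase of exon, Serping1 stood at 0.371, 0.396 and 0.385 times the sum of C1ra and C1rb in MSR1 KO and at 1.98, 1.76 and 2.30 times in MSR1 WT.

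Clu (clusterin), another fluid-phase regulator, had a log2 fold change of -0.51 (SE 0.35) and did not pass.

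Among the 11 receptors listed, 10 were tested, 0 were higher and 1 was lower. Itgax (CD11c), a chain of an integrin that binds iC3b, had 25.2, 18.4 and 15.4 CPM in MSR1 KO and 112, 77.4 and 144 CPM in MSR1 WT. Its log2 fold change was -2.50 (SE 0.25, adjusted p = 0.0045 by edgeR's quasi-likelihood test with Benjamini-Hochberg adjustment), and the call held in each of the 12 alternatives run, with an adjusted p of 0.042 or less. The most abundant receptors did not pass. Cd93 had a log2 fold change of 0.12 (SE 0.06), C3ar1, the receptor for C3a, 0.14 (SE 0.09), and Lrp1, which takes up complexes of proteases and inhibitors, -0.23 (SE 0.10).

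The remaining groups had no gene that passed edgeR's adjusted test in either direction. DESeq2 called Masp1, a lectin pathway protease named after its values were seen, lower (edgeR log2 fold change -0.63, SE 0.17). The list of other proteases and early components, in which Cfp and C1qbp were also placed, holds 6 genes, of which 3 were tested. Cfp (properdin, which stabilises the alternative convertase) had the highest level of them. It had 1038, 944 and 1262 CPM in MSR1 KO and 922, 902 and 890 CPM in MSR1 WT (log2 fold change 0.26, SE 0.10). C1qbp had a log2 fold change of -0.02 (SE 0.08). Of 9 lectin pathway genes 6 were tested, with log2 fold changes of 0.01 (SE 0.10) for Colec12, 0.02 (SE 0.15) for Masp2 and -0.13 (SE 0.17) for Fcna. Of 7 terminal pathway genes C8g alone was tested (log2 fold change 0.18, SE 0.42). The others had 5 counts or fewer in every library, so the membrane attack complex could not be followed. Of 9 membrane regulators 7 were tested, among them Cr1l at 0.13 (SE 0.08), Cd55 at -0.35 (SE 0.14) and Cd59a at -0.11 (SE 0.25).

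The cell type markers were read beside these genes, since the complement genes are also made by cells other than macrophages. Macrophage markers were high in both groups. Lyz2, Csf1r and Adgre1 had log2 fold changes of -0.15, 0.04 and 0.07, and the 10 markers summed to 23437 to 24439 CPM in MSR1 KO and 23522 to 26051 CPM in MSR1 WT. Of these 10, Fcgr1, named after its values were seen, was the single gene that edgeR called higher. DESeq2 called 2 of the 10 higher, Fcgr1 among them. Stromal markers were present, and some of them were lower in MSR1 KO. The 16 genes summed to 1395, 1828 and 1402 CPM in MSR1 KO and 2368, 1842 and 2139 CPM in MSR1 WT, with a median log2 fold change of -0.50, 6 called lower and 0 called higher by edgeR. Thy1, named after its values were seen, went the other way, with 6.24, 6.00 and 7.06 CPM in MSR1 KO and 2.04, 1.45 and 4.33 CPM in MSR1 WT (log2 fold change 1.31, SE 0.37), and did not pass in edgeR, but was called higher by edgeR with MSR1 WT replicate 3 left out. DESeq2 called 8 of the 16 lower and Thy1 higher. By edgeR, the number of the 16 called lower was 0 without MSR1 WT replicate 1 or MSR1 KO replicate 1. It was 1 without MSR1 KO replicate 3 and 4 to 7 with any other library left out. Over all genes tested, lower calls fell from 436 to 53 without MSR1 WT replicate 1 and 83 without MSR1 KO replicate 1. They were 151 without MSR1 KO replicate 3 and 141 to 372 with any other library left out. Col1a2, Col1a1 and Col3a1 had log2 fold changes of -0.39, -0.26 and -0.65 and did not pass. In these bulk libraries fewer stromal cells and less RNA per stromal cell cannot be told apart, and the part of stromal RNA in the lower C1s1 and Serping1 was not tested. No stromal marker was at 0 in every library.

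Other cell types were present at lower levels. The 8 neutrophil genes summed to 495 to 816 CPM in MSR1 KO and 325 to 632 CPM in MSR1 WT, with 0 called by edgeR and Retnlg, named after its values were seen, called higher by DESeq2 (Ngp 0.27, S100a9 0.35 and S100a8 0.35 on the log2 scale). The 6 endothelial genes summed to 111 to 134 CPM in MSR1 KO and 77.1 to 112 CPM in MSR1 WT. Pecam1 was called higher by edgeR and DESeq2 at 0.72, and Cdh5 and Emcn at 0.37 and 0.45 did not pass. Vwf, named after its values were seen, was the 1 gene of the 6 with a negative log2 fold change. DESeq2 called it lower, and edgeR's main fit did not. With library size alone, or with at least 10 counts required in every library, edgeR also called 1 endothelial gene lower. The 6 B cell genes summed to 24.4 to 27.8 CPM in MSR1 KO and 25.1 to 29.3 CPM in MSR1 WT. Of them, Cd79b and Ebf1 were tested, Ebf1 was called lower at -1.07, Ms4a1 had 0 to 4 counts a library, and Pax5 had 0 to 19. The 6 dendritic cell genes summed to 2.82 to 3.89 CPM in MSR1 KO and 1.64 to 3.41 CPM in MSR1 WT, with 0 called by edgeR and Xcr1 called higher by DESeq2 (Zbtb46 -0.53, Clec9a 1.80 and Xcr1 2.04). Hepatocyte markers, for the cells that make most circulating complement, were at 0 in every library for 4 of 5 genes, and Alb had 4 counts in a single library. The calls of Fcgr1 and Ebf1 were lost with MSR1 WT replicate 1 or MSR1 KO replicate 1 left out, and that of Pecam1 with any library but MSR1 WT replicate 3 left out.

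The listed genes known to be induced by interferon had positive log2 fold changes, and most of them were called higher. The 14 listed genes summed to 2790, 3837 and 2154 CPM in MSR1 KO and 934, 856 and 1376 CPM in MSR1 WT. Their median log2 fold change was 1.26, 11 were called higher by edgeR and 3 did not pass. The number called higher was 0 without MSR1 WT replicate 1 and 2 without MSR1 WT replicate 2 or MSR1 KO replicate 1. It was 4 without MSR1 KO replicate 2. Over all genes tested it also fell in these fits, from 369 to between 18 and 97. A fit with the replicate number as a block called 1 of the 14 higher. The part of the interferon-induced genes in the levels of the complement genes was not tested.

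The genes whose profile over the 6 libraries was most like that of C1rb, by the root mean square difference of log2 CPM values centred for each gene, were Gm44973 (1.19), Spon1 (1.36), Fgf2 (1.38), BC023105 (1.40) and Zfp708 (1.45), against a median of 2.60 over 13521 candidates. The closest, Gm44973, had 72, 246 and 82 counts in MSR1 KO and 0 in each MSR1 WT library. The match is loose, since even the closest gene differs by more than 1 log2 unit. For the mean of the C1q chains the closest were Cxcl16 (0.026), Sesn2 (0.033), Phc2 (0.033), Mrpl30 (0.035) and Tada3 (0.038), against a median of 0.240, with log2 fold changes between 0.25 and 0.32.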

How the data were processed

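RNA-seq libraries of macrophages co-cultured with BMSCs (3 MSR1 KO, 3 MSR1 WT) were used. The paper names TopHat as the aligner, whereas the submitters' processing notes name fastp 0.17.1, HISAT2 2.1.0, DESeq2 1.18.1 and R 3.4.3. The genome build, the counting program and the strand setting are not given in the sources used here. The authors deposited raw counts per gene, which were used. The deposited signal columns, which are size-factor scaled counts, were left aside, as were the columns of the authors' own comparison (log2 fold change and p-values). Of 52550 identifiers, 49909 had the same start and end in GENCODE M21, so positions are on GRCm38. The authors' adjusted p column, 1 value column in all, was given no mapping and was not used.

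The filter was filterByExpr, the normalization TMM, and the test glmQLFTest after glmQLFit (edgeR 4.0.16, R 4.3.3), with Benjamini-Hochberg adjustment over 16402 genes and a two-sided threshold of 0.05. A standard error is the log2 fold change divided by the root of its F statistic. The method was tested on simulated data. Levels per kilobase used the union of GENCODE exons. Transcripts (the longest of each gene) were aligned with Biopython, and promoters are RefSeq's (GRCm38.p6). Log2 CPM profiles used a prior count of 2, and genes under a mean of 1 CPM were left out of the search for like profiles. Alternatives were DESeq2 1.42.0, its size factors in edgeR, library size alone, other filters, a replicate block and each library left out.

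The members and gene lists were chosen with earlier results of these data known. Named were the 10 genes, other complement genes that passed and the 3 most abundant of each role group, Msr1, the 3 most abundant of each cell type list (macrophage, stromal, neutrophil, B cell, dendritic, endothelial, hepatocyte) and the 5 closest profiles. A gene that passed is not reported here. P-values measure the spread between these libraries.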

Additional observations from a re-analysis of the deposited data

How the results depend on the processing

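The log2 fold changes compared were those of the 10 complement genes, of C1ra plus C1rb and of the summed C1q chains. Each kept its direction in every alternative that gave a value, and stayed within 1 SD between replicates of the reported value. This outcome was largely set in advance and says little about stability. The groups of the 10 genes do not overlap, so leaving a library out could hardly reverse a direction or move a mean by the full SD. The other alternatives reuse the same libraries. C1rb had no value when at least 10 counts were required in every library. Calls were less stable. DESeq2 called 695 genes higher and 795 lower, and without a filter on low counts edgeR called 237 higher, 288 lower and 0 of the 10 complement genes lower. With each library left out in turn, 18 to 407 genes were higher and 53 to 372 lower, 1 to 5 of the 10 complement genes were higher and 0 to 0 lower, and 1 to 3 of the other complement genes were lower. Replicate numbers did not pair the libraries: the deviations of same-numbered libraries from their group means correlated across genes at -0.026, 0.019 and -0.005. A fit with the replicate number as a block called 59 genes higher and 78 lower, 1 of the 10 complement genes higher and 0 lower, and 1 other complement gene lower (Itgax). Under each scaling the median gene shifted by less than 0.1 on the log2 scale. Dividing by the whole genomic span of a gene in place of its exon length changed the place of 5 of the 10 genes in the MSR1 WT order of levels (C1qb, C1qc, C1s1, C2 and C4b). Counts of 0 to 15 for C1rb in MSR1 WT limit the precision of its fold change.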

Other observations

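C5ar2, a second receptor for C5a, singled out here after its values were seen, split the libraries without regard to genotype. It had 325, 3 and 415 counts in MSR1 KO replicates 1, 2 and 3 and 7, 3 and 290 counts in MSR1 WT replicates 1, 2 and 3, so 3 libraries were at 7.02 to 9.05 CPM and the other libraries had 7 counts or fewer. Its log2 fold change of 1.32 had an SE of 1.51. The related receptor C5ar1 was between 385 and 466 CPM in all 6 libraries. C5ar2 shares 3.57% of its exon bases with Gm26473. What sets these libraries apart for C5ar2 was not tested.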
